A study of Homo sapiens with 6 samples.

Results

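Transcripts of genes that p53 is known to activate were measured in a HEK293 line carrying a myocilin vector and in a HEK293 line carrying a control vector, with 3 Affymetrix HG-U133 Plus 2.0 arrays for each line. Of 10 chosen genes, MDM2, CCNG1, TP53I3, ZMAT3, FDXR, XPC, DDB2, RRM2B, PHLDA3 and AEN, 9 were named by the platform annotation as the only gene of at least 1 probe set, and FDXR was not analysed here. These 9 genes had 18 probe sets among the 41751 of the series, or 9 of 18338 genes. HEK293 cells are an established line from human embryonic kidney, and both lines are Tet-On derivatives, in which doxycycline switches on the inserted gene, grown under hygromycin B and G418. Doxycycline at 0.2 or 1 µg/ml for 48 h is given in a protocol that reads alike for all samples, but only the descriptions of the myocilin samples name the drug, and the dose of each array is not given. Each line is represented once, so myocilin itself and any other difference between the lines cannot be told apart. The labels do not say whether the 3 arrays of a line are separate cultures, so each p-value reflects the spread of these arrays alone, and that spread may be technical.

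The transcription factor p53 is stabilised by DNA damage and other stress and switches on genes of cell cycle arrest, cell death, DNA repair and metabolism. One of its targets, MDM2, encodes the ubiquitin ligase that marks p53 for destruction, so that p53 limits its own level. HEK293 cells were made with adenovirus DNA and keep an early viral protein that binds p53 and restrains its activity. The factor binds a DNA element made of a pair of 10-base half-sites.

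Because these genes were chosen as p53 targets, the closest match to the p53 element in the RefSeq promoter windows of GRCh38.p14 is shown for each measured gene that has one. A window runs from 250 bases before to 50 bases after a transcript's start, and 7 of the 9 measured genes matched by symbol, all but RRM2B and PHLDA3. Both half-sites were taken with no spacer, 20 bases in all, and mismatches to the consensus were counted; the consensus reads the same on both strands. Capitals mark bases that fit the consensus and lower case marks mismatches.
DDB2, chr11:47214969-47214988, plus strand: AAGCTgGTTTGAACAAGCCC
MDM2, chr12:68808923-68808942, plus strand: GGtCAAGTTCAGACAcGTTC
AEN, chr15:88621306-88621325, plus strand: GGGCTTGCCCGGGCATGTgg
XPC, chr3:14178570-14178589, minus strand: GAAtTTGCCCAGACAAGCaa
ZMAT3, chr3:179071873-179071892, minus strand: GGGCcTGCTCcGcCAAGCaC
TP53I3, chr2:24084881-24084900, minus strand: AGGgTgGTTCtGctTAGCCC
CCNG1, chr5:163437409-163437428, plus strand: GGGgAAtTTgAGGCcAGaTa
The match in DDB2 had 1 mismatch, and 0.094% of all 35116 windows held a match that close. MDM2 and AEN each had 2 mismatches, reached by 0.649% of windows, XPC had 3, reached by 5.2%, and ZMAT3 had 4, reached by 26.0%. TP53I3 with 5 and CCNG1 with 6 mismatches were at the level of most windows, since 70.5% and 97.4% of them held a match as close. Sites outside the windows, with a spacer or of another form were not searched. Such counts therefore do not show that a gene lacks a p53 site. With the start base counted as 0, the AEN match spans -34 to -15, the MDM2 match -94 to -75 and the DDB2 match -5 to 14. The MDM2 match lies before the second of its starts, and the 2 windows at the first start had 5 mismatches at best. The other DDB2 window had 5 mismatches and the other ZMAT3 window had 6. The best match over a gene's windows is shown, while the shares count single windows. A gene with several windows thus had more chances of a close match than its share states.

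The 250 bases before the start are given for AEN and TP53I3, the genes that differed between the lines, and for MDM2 at its second start, with the match in capitals.
AEN, chr15:88621090-88621339, plus strand: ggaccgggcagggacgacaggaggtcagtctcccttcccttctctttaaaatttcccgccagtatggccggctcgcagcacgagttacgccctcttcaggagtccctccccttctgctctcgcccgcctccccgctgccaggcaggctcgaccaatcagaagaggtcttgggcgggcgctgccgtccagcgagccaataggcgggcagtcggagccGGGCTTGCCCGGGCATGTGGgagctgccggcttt
TP53I3, chr2:24084835-24085084, minus strand: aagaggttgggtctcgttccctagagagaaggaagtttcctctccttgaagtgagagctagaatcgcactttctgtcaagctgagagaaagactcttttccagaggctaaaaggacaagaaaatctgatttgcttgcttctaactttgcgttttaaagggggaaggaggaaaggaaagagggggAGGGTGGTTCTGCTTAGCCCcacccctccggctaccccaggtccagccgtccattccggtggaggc
MDM2, chr12:68808767-68809016, plus strand: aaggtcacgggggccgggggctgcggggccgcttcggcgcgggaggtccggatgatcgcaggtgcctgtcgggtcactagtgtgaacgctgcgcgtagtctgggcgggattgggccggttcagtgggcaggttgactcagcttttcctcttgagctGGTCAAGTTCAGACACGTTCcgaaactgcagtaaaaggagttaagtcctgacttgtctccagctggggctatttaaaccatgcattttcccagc
These matches are descriptions of letters and do not show binding in these cells.

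MYOC, the induced gene, stood at 0.21, 0.20 and 0.24 on the myocilin arrays and at -6.71, -8.32 and -8.29 on the control arrays, which checks the labels and the direction of the values. Values are deposited on a scale read as log2 and look centred for each probe set, a step that no source states, so only differences between arrays can be read from them; they hold no amount of RNA and no detection call, and levels of different probe sets cannot be set against each other. In such bulk RNA, fewer cells expressing a gene and less RNA per cell cannot be told apart. Over all probe sets, arrays correlated at 0.513 to 0.608 within the myocilin line, 0.409 to 0.464 within the control line and -0.244 to -0.00516 between the lines. Centring each probe set takes out the level that all arrays share, which lowers such correlations. The negative values therefore do not measure how unlike the lines are. Of 9 markers listed for HEK293, 2 were higher in the myocilin line, the neurofilament genes NEFM at 1.42 and NEFH at 0.67, and 0 were lower, or 22.2% against 15.6% of all genes. The median difference of these markers was 0.22, beside 0.02 over all genes. For 6 of the 9 the lines did not overlap, or 66.7% against 34.9% of all genes, and all 6 were higher in the myocilin line. These 6 also had an unadjusted p under 0.05, beside 5503 of all 18338 genes. LHX1 at 0.33 and KRT8 at 0.25 were the largest that did not pass. For NEFM, probe set 205113_at rose by 2.66, while 223902_at read 0.17 and did not pass (limma adjusted p = 0.177 over probe sets). Of 12 markers of other cell types, COL1A1 was higher at 0.25 (log2 difference) and none was lower, or 8.33% called, with CD14 at 0.19 and LUM at -0.17 the largest that did not pass. For COL1A1, its 5 probe sets ranged from -0.02 to 0.69, and the call was lost without control array 1 or 2 or myocilin array 1 or 2. The part of these in the results below was not tested, and such values do not show whether a marker is absent.

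Most of the p53 targets did not pass the test, and the pair that did moved in opposite directions. AEN rose by 0.48 and TP53I3 fell by 0.45 (log2 difference, myocilin minus control), each on its only probe set, while the other 16 probe sets, of 7 genes, did not pass the threshold of an adjusted p of 0.05. Over all probe sets 11.0% were called, 5.46% higher and 5.56% lower. For genes, 1 of 9 was called higher and 1 lower, against 15.6% of all genes called, 8.28% higher and 7.35% lower. The median difference of the 9 genes was 0.05, beside 0.02 over all genes fitted. Groups did not overlap for 4 of the 18 probe sets, where 30.4% of all probe sets did not overlap, and for 3 of the 9 genes, where 34.9% of all genes did not. Standard errors of the 18 probe sets were 0.07 to 0.12, so a change of 0.48 stood well outside the spread and one of 0.10 did not.

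**Figure D1:**
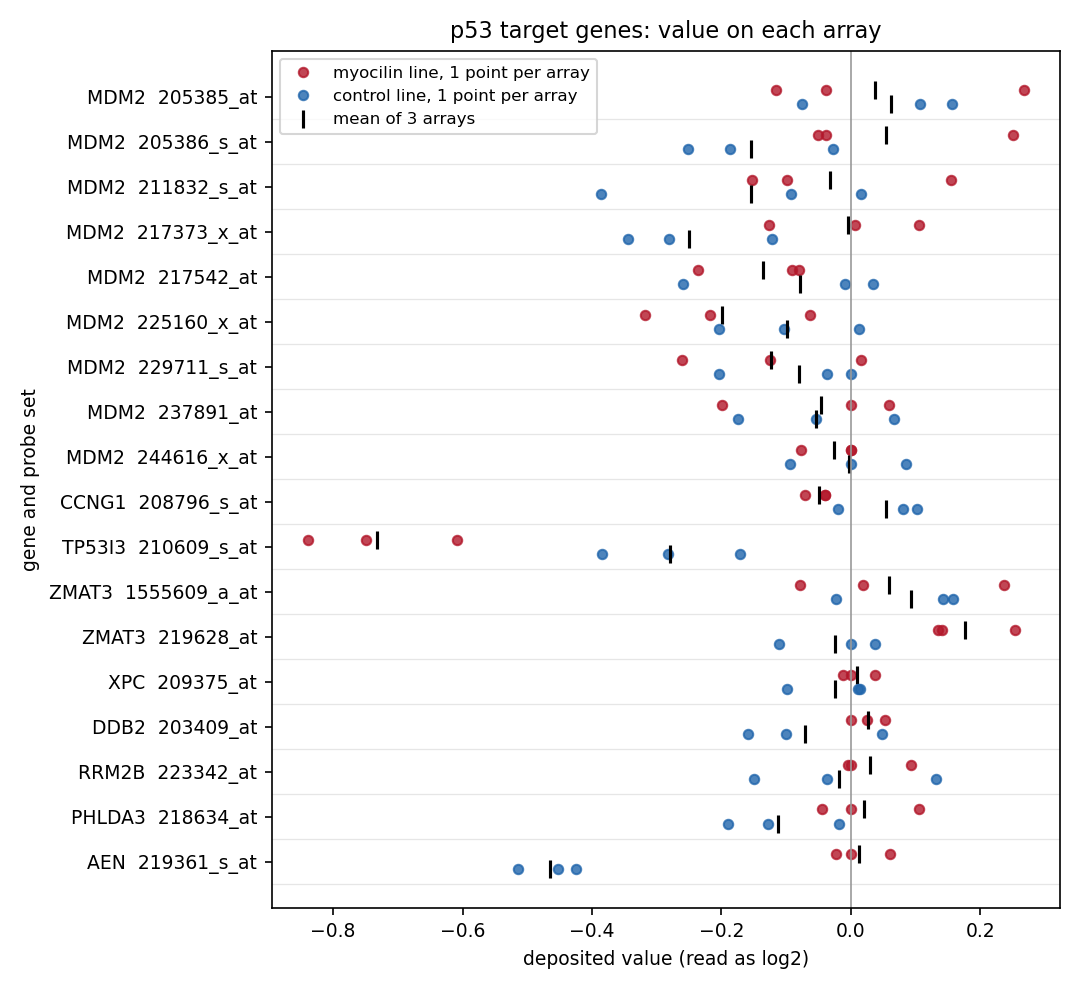
Values of the 18 probe sets of 9 p53 target genes on each array, as deposited (read as log2), with 3 myocilin arrays (red, upper row of each pair) and 3 control arrays (blue, lower row) and a black bar at each mean. The AEN points of the myocilin line lie to the right of all control points and those of TP53I3 lie to the left; most other rows overlap.

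AEN encodes an exonuclease that p53 induces and that promotes cell death. Its probe set 219361_s_at read 0.00, 0.06 and -0.02 on the myocilin arrays and -0.51, -0.45 and -0.43 on the control arrays. Every myocilin array stood above every control array, and the arrays of each line lay close together. The means were 0.01 ± 0.04 and -0.46 ± 0.05 (SD, n = 3 each), a difference of 0.48 ± 0.07 (SE) or 1.39-fold (limma adjusted p = 0.00285 over probe sets). By size this was rank 259 among the 1519 genes that rose.

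TP53I3 encodes a quinone oxidoreductase-like enzyme linked to the reactive oxygen species that accompany p53-dependent cell death. Its probe set 210609_s_at read -0.75, -0.84 and -0.61 on the myocilin arrays and -0.38, -0.17 and -0.28 on the control arrays. All arrays of the myocilin line were below all arrays of the control line. The means were -0.73 ± 0.12 and -0.28 ± 0.11 (SD, n = 3 each), and the difference was -0.45 ± 0.09 (SE), or 1.37-fold lower in the myocilin line (limma adjusted p = 0.0111 over probe sets). By size it was rank 311 among the 1347 genes that fell. Both called genes rest on 1 probe set with the suffix _s_at, which marks probes shared by several transcripts, so no second probe set could be set beside either value.

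**Figure D2:**
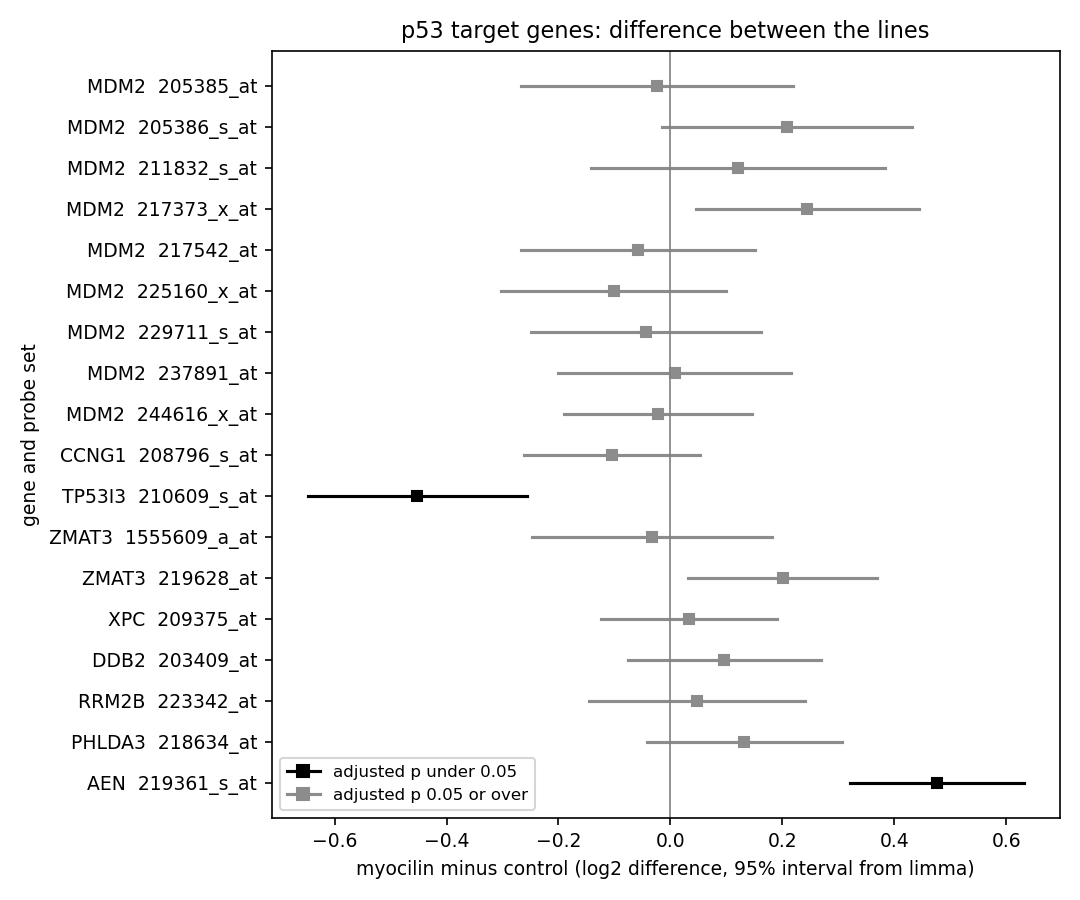
Log2 difference, myocilin minus control, of each of the 18 probe sets (squares) with its 95% interval from limma (lines), black where the adjusted p was under 0.05. AEN at 0.48 and TP53I3 at -0.45 are black, and the 9 MDM2 rows lie from -0.10 to 0.24 on both sides of 0.

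MDM2, the ubiquitin ligase of the feedback loop, was covered by 9 probe sets, and none of them passed the threshold. Their differences ran from -0.10 for 225160_x_at to 0.24 for 217373_x_at, with 4 above 0 and 5 below. Averaged over probe sets, MDM2 read 0.03, -0.10 and -0.10 on the myocilin arrays and -0.17, 0.00 and -0.10 on the control arrays. The lines overlapped, and the difference of 0.04 had a 95% interval of -0.11 to 0.19 (limma adjusted p = 0.764 over genes). The probe set with the largest difference, 217373_x_at, read 0.11, -0.13 and 0.01 on the myocilin arrays and -0.35, -0.12 and -0.28 on the control arrays (limma adjusted p = 0.115 over probe sets). Its lowest myocilin array overlapped the highest control array. The next, 205386_s_at at 0.21, also overlapped (limma adjusted p = 0.227).

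The spread of MDM2 within a line was shared by many of its probe sets. Ties included, control array 1 gave the lowest control value for 6 of 9 probe sets and control array 2 the highest for 7. On the myocilin side, array 1 gave the highest value for 7 of 9. The median over the 9 probe sets was 0.02, -0.12 and -0.08 on the myocilin arrays and -0.20, 0.01 and -0.08 on the control arrays. The mean difference was -0.002 without control array 1 and -0.006 without myocilin array 1, against 0.08 without control array 2, and none of these passed.

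**Figure D3:**
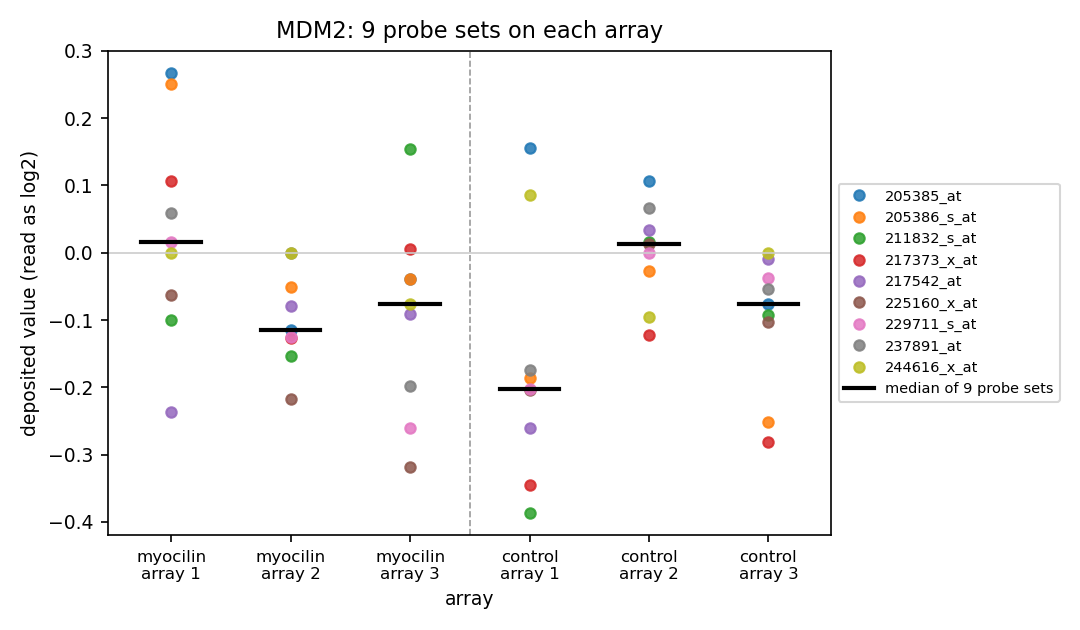
Values of the 9 MDM2 probe sets (coloured points) on each of the 3 myocilin arrays (left) and 3 control arrays (right), as deposited (read as log2), with the median of the 9 as a black bar. The medians run from -0.12 to 0.02 in the myocilin line and from -0.20 to 0.01 in the control line, so the lines overlap.

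Other genes of feedback and growth control did not pass. CCNG1 encodes a cyclin that brings a phosphatase to MDM2. Its values were -0.04, -0.04 and -0.07 on the myocilin arrays and -0.02, 0.08 and 0.10 on the control arrays. The lines did not overlap, but the difference of -0.10 had a 95% interval of -0.26 to 0.05 (limma adjusted p = 0.395 over probe sets). PHLDA3, which encodes a lipid-binding protein that restrains the kinase AKT, read -0.04, 0.10 and 0.00 on the myocilin arrays and -0.13, -0.19 and -0.02 on the control arrays. One myocilin array lay among the control arrays, and the difference was 0.13, with a 95% interval of -0.04 to 0.31 (limma adjusted p = 0.329 over probe sets).

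ZMAT3, which encodes an RNA-binding zinc finger protein, had a pair of probe sets that differed from each other. Probe set 219628_at read 0.13, 0.14 and 0.25 on the myocilin arrays and 0.04, -0.11 and 0.00 on the control arrays. Here the lines did not overlap, and the difference of 0.20 ± 0.08 (SE) did not pass (limma adjusted p = 0.127 over probe sets). Probe set 1555609_a_at read -0.08, 0.02 and 0.24 on the myocilin arrays and 0.16, -0.02 and 0.14 on the control arrays, a difference of -0.03 with overlapping lines. Averaged over both, ZMAT3 differed by 0.08, with a 95% interval of -0.08 to 0.25 (limma adjusted p = 0.507 over genes).

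The 3 genes of DNA repair and nucleotide supply also did not pass. DDB2, which helps to recognise ultraviolet damage in DNA, read 0.03, 0.00 and 0.05 on the myocilin arrays and -0.10, 0.05 and -0.16 on the control arrays. XPC, which recognises distorted DNA at the start of nucleotide excision repair, read -0.01, 0.04 and 0.00 on the myocilin arrays and -0.10, 0.01 and 0.01 on the control arrays. RRM2B, a p53-induced subunit of ribonucleotide reductase, the enzyme that makes DNA building blocks, had a mean of 0.03 ± 0.05 on the myocilin arrays and -0.02 ± 0.14 on the control arrays (SD, n = 3 each). All of them overlapped between the lines. The differences were 0.10 for DDB2, 0.03 for XPC and 0.05 for RRM2B, with 95% intervals of -0.08 to 0.27, -0.12 to 0.19 and -0.14 to 0.24 (limma adjusted p = 0.483, 0.818 and 0.779 over probe sets). DDB2, whose window holds the closest match to the p53 element, had a difference of 0.10 that did not pass. AEN and MDM2, with 2 mismatches each, differed by 0.48 and 0.04. Any link between these matches and the differences was not tested.

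Among 40 other p53 targets measured of 43 listed, 4 rose, 3 fell and 33 did not pass, or 17.5% called against 15.6% of all genes. Their median difference was 0.07, beside 0.02 over all genes, and they ranged from -1.09 to 0.50. Of the 40, 31 differed by more than 0, beside 10141 of all 18338 genes. The lines did not overlap for 19 of the 40, or 47.5% against 34.9% of all genes. An unadjusted limma p under 0.05 was found for 15 of the 40. Genes of cell cycle arrest had 0 of 7 called. Of these 7, 1 had an unadjusted p under 0.05, beside 5503 of all 18338 genes. CDKN1A, the CDK inhibitor through which p53 halts the cycle, read 0.09, 0.09 and 0.11 on the myocilin arrays and 0.00, -0.04 and 0.00 on the control arrays. The lines did not overlap, and the difference of 0.11 ± 0.05 (SE) did not pass (limma adjusted p = 0.202 over genes). PLK2 at 0.25 and SFN at 0.24 were the largest differences of that list and did not pass (limma adjusted p = 0.285 and 0.0586). The SFN probe set 33323_r_at did pass, at 0.41 (limma adjusted p = 0.0176 over probe sets), while its others read 0.17 and 0.16.

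Genes of cell death moved both ways, with 2 higher and 2 lower among 12 measured, or 33.3% against 15.6% of all genes. The lines did not overlap for 8 of the 12, or 66.7% against 34.9% of all genes. Of the 12, 7 had an unadjusted limma p under 0.05, beside 5503 of all 18338 genes. TNFRSF10A, a receptor for the death ligand TRAIL, read 0.14, 0.17 and 0.09 on the myocilin arrays and -0.51, -0.27 and -0.32 on the control arrays, and rose by 0.50 ± 0.07 (SE, limma adjusted p = 0.00228). FAS, the receptor of the Fas ligand, read 0.19, 0.24 and 0.21 on the myocilin arrays and -0.13, -0.05 and -0.13 on the control arrays. It rose by 0.31 ± 0.06 (SE, limma adjusted p = 0.00615), with 3 of its 4 probe sets past the threshold. Both receptor genes stood above the control arrays on every myocilin array.

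On the other side, PMAIP1, which encodes the BH3-only protein NOXA, read -0.36, -0.37 and -0.45 on the myocilin arrays and 0.15, 0.25 and 0.10 on the control arrays, and fell by 0.56 ± 0.06 (SE, limma adjusted p = 0.000646). BAX, which forms pores in the mitochondrial membrane, fell by 0.33 ± 0.08 (SE, limma adjusted p = 0.0242). The BAX call was lost without control array 2 (limma adjusted p = 0.0667) and without control array 3, myocilin array 1 or myocilin array 2 in turn. TRIAP1 at 0.19 and TP53INP1 at -0.17 did not pass over genes. The TP53INP1 probe set 225912_at did pass, at -0.53 (limma adjusted p = 0.0107 over probe sets), while its others read 0.09 and -0.06.

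SESN2, a stress gene that restrains mTORC1 and also answers to ATF4, had the largest difference of the p53 targets listed. It read -0.63, -0.59 and -0.30 on the myocilin arrays and 0.61, 0.83 and 0.31 on the control arrays, and fell by 1.09 ± 0.13 (SE, limma adjusted p = 0.000965). Both of its probe sets fell, by 0.97 and 1.21. The other 10 genes of metabolism and stress did not pass, with TIGAR at 0.19 and RETSAT at -0.18 the largest of them, so that 9.09% of this list was called against 15.6% of all genes. Among 10 genes of repair and feedback, 2 rose and none fell, or 20.0% against 15.6% of all genes. PPM1D, a phosphatase that dampens p53 signalling and is itself a p53 target, read 0.06, 0.05 and 0.00 on the myocilin arrays and -0.47, -0.22 and -0.36 on the control arrays, a rise of 0.39 ± 0.07 (SE, limma adjusted p = 0.00697). ASCC3, a helicase of alkylation repair, rose by 0.24 ± 0.06 (SE, limma adjusted p = 0.0218). The ASCC3 call was lost without control array 2 (limma adjusted p = 0.0525) and without control array 3, myocilin array 1 or myocilin array 2 in turn. Neither of its probe sets passed over probe sets (limma adjusted p = 0.0531 and 0.127). SERTAD1 at 0.21 and POLH at 0.13 did not pass over genes. The POLH probe set 222879_s_at did pass, at 0.43 (limma adjusted p = 0.00558 over probe sets), while its others ranged from -0.01 to 0.19.

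**Figure D4:**
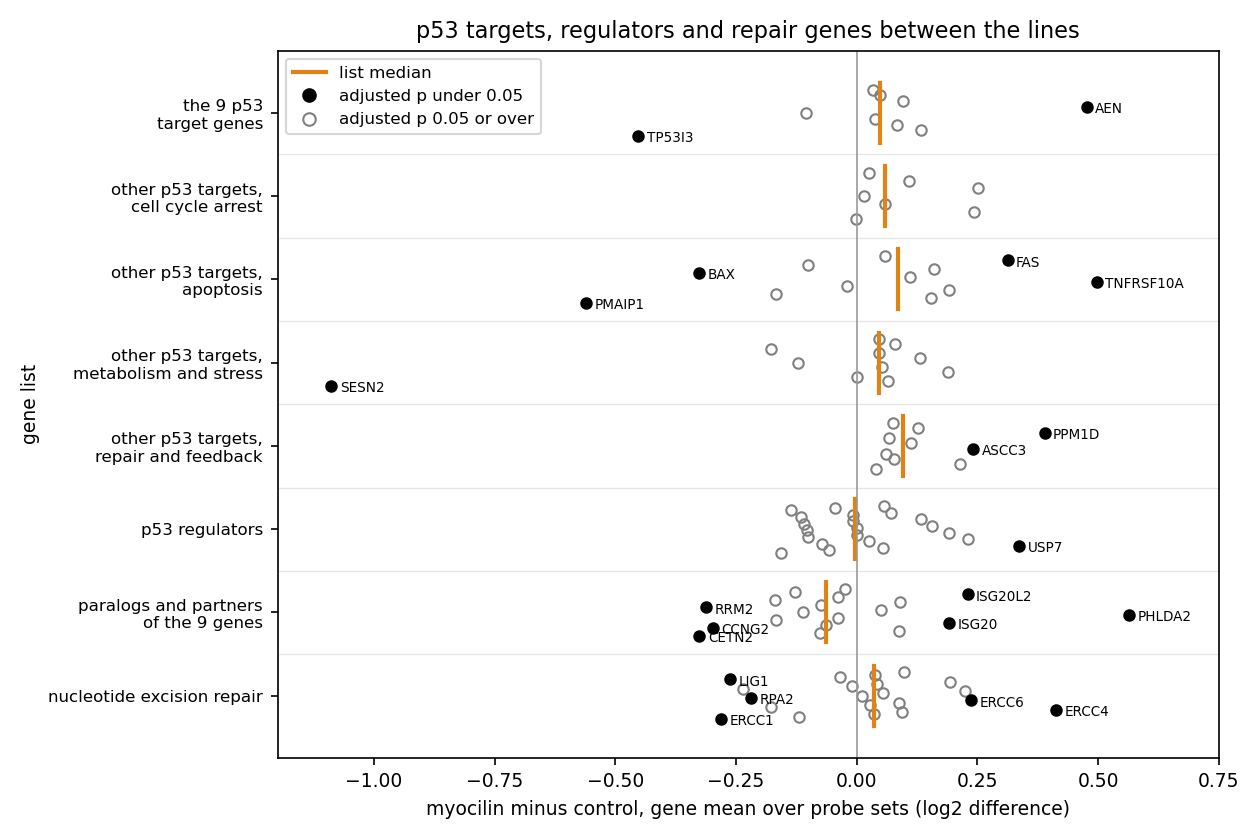
Log2 difference, myocilin minus control, of each gene (mean over its probe sets) in 8 lists, filled where the adjusted p was under 0.05, with the list median as an orange bar. AEN and TP53I3 lie on opposite sides of 0, as do TNFRSF10A and PMAIP1, and the list medians lie between -0.06 and 0.10.

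Of 22 genes measured of 25 listed for p53 and its regulators, 1 rose and none fell, or 4.55% against 15.6% of all genes. The lines did not overlap for 9 of the 22, or 40.9% against 34.9% of all genes. Of the 22, 6 had an unadjusted p under 0.05, beside 5503 of all 18338 genes. USP7, a deubiquitinase that acts on both MDM2 and p53, read -0.01, 0.03 and 0.01 on the myocilin arrays and -0.46, -0.26 and -0.26 on the control arrays, a rise of 0.34 ± 0.07 (SE, limma adjusted p = 0.0105). Its 3 probe sets rose by 0.29 and 0.48 and read 0.24 for the third, which did not pass. MDM4, the relative of MDM2 that masks p53, differed by -0.01, with a 95% interval of -0.15 to 0.13 (limma adjusted p = 0.945). SIRT1 at 0.23 and PPP1R13L at 0.19 were the next in size and did not pass.

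Among 19 paralogs and partners of the 9 genes, 3 rose and 3 fell, or 31.6% against 15.6% of all genes. RRM2, the cell cycle-regulated relative of RRM2B, read -0.15, -0.15 and -0.22 on the myocilin arrays and 0.05, 0.21 and 0.16 on the control arrays, a fall of 0.31 ± 0.06 (SE, limma adjusted p = 0.00999). Its probe sets differed in size, at -0.50 and -0.13, the second not past the threshold. CCNG2, the relative of CCNG1, fell by 0.30 ± 0.07 (SE, limma adjusted p = 0.0152). Of its 5 probe sets, 4 read -0.45 to -0.39 and 1555056_at read 0.19, and the call was lost without myocilin array 1 (limma adjusted p = 0.0571) or array 3 (limma adjusted p = 0.0507). CETN2, a partner of XPC in damage recognition, fell by 0.33 ± 0.06 (SE, limma adjusted p = 0.00836).

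PHLDA2, a relative of PHLDA3, rose by 0.56 ± 0.07 (SE, limma adjusted p = 0.000995), but 1 of its 3 probe sets read 1.65 and the others 0.04 and -0.01. ISG20L2 rose by 0.23 and ISG20 by 0.19 (limma adjusted p = 0.0245 and 0.0495); both encode exonucleases of the family to which AEN belongs. None of the single probe sets of these last 2 genes passed over probe sets, and both calls were lost without myocilin array 1 (limma adjusted p = 0.0981 and 0.106), as well as without any 1 of the control arrays. Without myocilin array 1 or without myocilin array 3, 3 genes of this list were called, against 6 with all arrays. Of those called, 1 was higher in each of these fits, against 3 with all arrays. With 1 probe set per gene by ID, 0 genes of the list were called higher. ZMAT1 at -0.17 and FDX2 at -0.17 did not pass over genes. The ZMAT1 probe set 226344_at did pass, at -0.36 (limma adjusted p = 0.0377 over probe sets), while 241328_at read 0.02.

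Genes of nucleotide excision repair, the pathway of XPC and DDB2, had 2 rises and 3 falls among 21, or 23.8% against 15.6% of all genes. ERCC4, which cuts damaged DNA together with ERCC1, rose by 0.41 ± 0.10 (SE, limma adjusted p = 0.0206), while ERCC1 fell by 0.28 ± 0.07 (SE, limma adjusted p = 0.0195). LIG1, the ligase that seals the repaired strand, fell by 0.26 ± 0.06, RPA2, which coats single strands, fell by 0.22 ± 0.06 and ERCC6, which acts where transcription stalls, rose by 0.24 ± 0.07 (SE, limma adjusted p = 0.0129, 0.0267 and 0.0398). These calls were close to the threshold: with any 1 of the 6 arrays left out, 1 to 3 genes of this list were called, against 5 with all arrays. GTF2H3 at -0.23 and XAB2 at 0.22 did not pass. Over probe sets, RPA2 did not pass on 201756_at (limma adjusted p = 0.0705). For ERCC6, 207347_at passed at 0.45 (limma adjusted p = 0.0138 over probe sets), while 230108_at read 0.02.

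Of all 18338 genes, MMD, MTPAP and RIOK1 had the patterns most like AEN over the 6 arrays, once each gene was set to a mean of 0 over them, with root mean square distances of 0.02, 0.03 and 0.03 on the log2 scale. MMD differed by 0.49, MTPAP by 0.45 and RIOK1 by 0.50. LPAR3, PKDCC and ZKSCAN7 were nearest to TP53I3, at distances of 0.03, 0.04 and 0.05, with differences of -0.51, -0.40 and -0.42. These likenesses describe 6 arrays, and mostly the gap between the lines.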

How the data were processed

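The deposited table holds values on a log scale, read as log2 from their spread; the log base is not stated by the authors, and per the labels the RNA was biotin-labelled total RNA. Every array has a median of 0, and the authors seem to have centred every probe set; how they corrected background, summarised probes and normalised is not stated in the labels or headers. Of 41751 probe sets, 37460 were listed with 1 gene, 1728 with several and 2563 were not listed; 37416 matched RefSeq (GRCh38.p14) by Entrez ID. Arrays were grouped by source name. Probe sets and genes (the mean of a gene's probe sets) were fitted with limma 3.58.1 (lmFit, eBayes, two-sided) in R 4.3.3, Benjamini-Hochberg adjusted over all features, threshold 0.05; the precision is limited by 3 arrays per line. Intervals are 95% and unadjusted. Named genes were all measured members, MYOC, MDM4 and CDKN1A, in each list the called genes and the 2 largest not called, and the 3 genes most like each called member. The members and lists were chosen with earlier results of these data known. In simulated data for this comparison, 200 genes or 200 probe sets were changed and the others were not. Over 18338 genes, the fit recovered 17.9% of genes changed by 0.3, 64.2% at 0.5 and 95.5% at 1 (log2). Over 41751 probe sets it recovered 1.49%, 38.8% and 86.4%. In the data 2866 genes were called, far more than were changed in the simulation. These rates therefore do not give the share recovered in the data.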

Additional observations from a re-analysis of the deposited data

How the results depend on the processing

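AEN and TP53I3 kept their direction and stayed past the threshold under the 11 alternatives that could be fitted for them: quantile normalisation, median centring, trend and robust fitting, array weights, 1 probe set per gene by ID and each array left out in turn. AEN ranged from 0.45 to 0.50 and TP53I3 from -0.51 to -0.40, with limma adjusted p of at most 0.00612 and 0.0257 over genes, and 0.0162 and 0.0463 over probe sets. Once probe sets with the suffix _x_at or _s_at were removed, neither gene has a probe set left, so 0 of 9 member probe sets and 0 of 6 member genes were called; 3 of 32 other p53 targets, 2 of 15 paralogs and partners and 3 of 18 repair genes were called there. Array weights called 3 p53 regulators in place of 1. With 1 probe set per gene by ID, 3 paralogs and partners and 3 repair genes were called, and CCNG2 read 0.19, since the probe set picked was 1555056_at. Leaving out 1 array gave 2 member probe sets and 2 member genes each time, 5 to 7 other p53 targets, 1 regulator, 3 to 5 paralogs and partners and 1 to 3 repair genes; PHLDA2 read 0.04 without its _s_at probe sets. MDM2 had the opposite sign under 4 of 12 alternatives and ZMAT3, XPC and RRM2B under 1 each; none passed under any of them. Over all genes 2866 were called, and 1613 without myocilin array 1, 1889 without control array 2, 1905 without myocilin array 2 and 1878 without the _x_at and _s_at probe sets. No paired analysis was possible because the array numbers in the titles are not shared between the lines. A filter on dim probe sets, another background correction and a slide block were not run, since the deposited values keep no brightness and no scanner values or slides are given.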

Other observations

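Of the other p53 targets, 33 had a RefSeq promoter window. FAS and PANK1 had a match to the p53 element with at most 2 mismatches, as AEN and MDM2 had; FAS rose, as given above, and PANK1 differed by 0.08 and did not pass. In all, 7 of the 33 had at most 3 mismatches. Among them PMAIP1, with 3, fell, while GDF15 at 0.05, SESN1 at -0.12, RPS27L at 0.0007 and TP53AIP1 at -0.02, also with 3, did not pass. Of all 35116 single windows, 5.2% had at most 3 mismatches, but a gene with several windows had more chances of a close match. SESN2, which fell most among these p53 targets, had 5 mismatches at best within the bases searched, and sites elsewhere were not searched. The genes named here outside the rule for named genes were chosen after their values were seen.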
